A study of Mus musculus with 50 samples.

Results

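The binding of NFIA without the glucocorticoid receptor (GR, encoded by Nr3c1) was examined at distal sites of the astrocyte genome in primary visual cortex (V1). NFIA sites were the merged peaks of 3 NFIA CUT&RUN libraries of astrocytes from normally reared (NR) mice, kept where at least 2 libraries had a peak, and GR sites were made in the same way from 3 GR libraries of NR astrocytes. Of 23495 NFIA sites, 14003 had their midpoint more than 500 bp from any annotated transcription start and were called distal, and 7712 of these (32.8% of all NFIA sites) overlapped none of the 12458 GR sites. The measured peak calls of these 6 libraries thus chose the 7712 sites, and values from the same libraries are given here as description, without a test. The other 6291 distal NFIA sites overlapped a GR site and are called distal GR-NFIA sites, and 3934 NFIA sites within the limit overlapped no GR site and are called promoter NFIA sites without GR.

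CUT&RUN releases short DNA fragments around a protein by means of an antibody-tethered nuclease, and the deposited files hold the peaks of each library. In vivo nuclei came from mice at postnatal day 14. Astrocyte nuclei of NR mice and of dark-reared (DR) mice were marked in wild-type animals by an AAV2/5 vector injected in newborns, in which the astrocyte promoter GfaABC1D drives ΔCre, an inactive Cre, together with EGFP-KASH, a GFP held at the nuclear envelope. The labels give wild type for the NFIA astrocyte libraries too, whereas the study's methods name astrocyte NFIA libraries only with GRfl/fl mice, so the genotype behind the NFIA sites is uncertain. In NR GRfl/fl mice, whose GR gene is flanked by loxP sites, the same virus gave the GR-con group, and its version with active Cre gave the GR-KO group. In NR mice, Sun1-GFP marked oligodendrocytes under Olig2-Cre, inhibitory neurons (InN) under Vgat-Cre and excitatory neurons (ExN) under Vglut1-Cre, so that each population is defined by its driver, and Olig2 also marks progenitors. 3T3 cells, a mouse fibroblast line, were treated for 2 h with 200 nM dexamethasone (DEX), a synthetic glucocorticoid, or with vehicle (0.01% ethanol), at 50000 or 250000 cells per library. Each in vivo library pooled V1 tissue of several mice, and replicates are those of the labels, so a p-value here reflects the scatter among libraries, which can include technical scatter. Groups had 3 libraries, except GR-con, GR-KO and each 3T3 group, which had 2.

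The libraries differed widely in the number of peaks, which is the only depth the files give. NFIA lists of astrocytes held 22373 to 27143 peaks, those of oligodendrocytes 111 to 722, those of InN 178 to 1907 and those of ExN 1 to 4173. GR lists held 14012, 2262 and 21539 peaks in NR astrocytes, 28 to 293 in DR, 6792 and 7761 with GR-con, 413 and 1846 with GR-KO, and 4 to 4563 in other cell types. A site without a peak in a short list has no call, which is not an absence of binding, and fewer nuclei of a type, less factor per nucleus and a shallower library cannot be told apart in peak lists. Intervals are Wilson intervals at the 95% level, limits for a count of 0 are 3 counts of the total, and both cover counting error only.

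NFIA is a member of the nuclear factor I family, with NFIB, NFIC and NFIX. These proteins bind DNA as dimers at a palindrome made of inverted TTGGC and GCCAA elements, and they also bind a single element more weakly. NFIA acts in the switch of neural progenitors to gliogenesis and in the later maturation of astrocytes, whereas GR is a hormone-dependent nuclear receptor that binds its own palindromic response element (GRE) or meets chromatin beside other factors.

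The DNA at the NFIA summits of 10 of these sites is shown to make the full NFI palindrome and its absence visible. The 10 are not a typical sample, since most windows held no exact match to the NFI patterns searched (mm10, plus strand, 50 bp to either side of the summit, sequence from the reference genome). The first 5 are the sites among the named ones whose window held a full NFI palindrome, TTGGC and GCCAA with 5 bases between them, and capitals mark the 15 bases from its first to its last base. The other 5 were the leading sites with a peak in other cell types or other GR libraries that lacked an exact full palindrome. They are shown for contrast, and capitals in them mark a single NFI element, TTGGCA or its reverse complement, where the window held one. A window in lower case throughout held no exact match to either, which is all that the label of no NFI element means. Such a window can hold a near match: that near Asb17 has TGGC and GCCA with 5 bases between them. Both windows with a single element, near Crebbp and in St3gal2, hold CTGGC and GCCAA with 5 bases between them. The capitals there thus mark only part of a near palindrome.
Full palindrome, nearest protein-coding start Cadm1, chr9:47358163-47358263: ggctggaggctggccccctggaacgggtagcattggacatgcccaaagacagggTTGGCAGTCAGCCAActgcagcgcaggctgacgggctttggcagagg
Full palindrome, intron of Scml4, chr10:42863627-42863727: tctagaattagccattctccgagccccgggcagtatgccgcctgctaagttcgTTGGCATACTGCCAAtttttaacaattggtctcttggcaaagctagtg
Full palindrome, with NFIA in oligodendrocytes and InN, chr16:77501174-77501274: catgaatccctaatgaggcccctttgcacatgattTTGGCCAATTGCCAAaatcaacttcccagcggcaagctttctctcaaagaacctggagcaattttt
Full palindrome, nearest protein-coding start Irf2bpl, with NFIA in oligodendrocytes, InN and ExN, chr12:86894439-86894539: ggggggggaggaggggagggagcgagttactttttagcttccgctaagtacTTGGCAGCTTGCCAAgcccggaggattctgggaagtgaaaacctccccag
Full palindrome, nearest protein-coding start Gm12695, with GR in GR-con, chr4:96797733-96797833: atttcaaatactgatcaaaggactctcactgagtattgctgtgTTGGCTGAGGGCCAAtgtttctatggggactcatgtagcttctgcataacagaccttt
No NFI element, nearest protein-coding start Asb17, with NFIA in oligodendrocytes, InN and ExN, chr3:153806445-153806545: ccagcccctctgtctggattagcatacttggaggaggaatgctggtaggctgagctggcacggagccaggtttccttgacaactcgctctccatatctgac
Single element, nearest protein-coding start Crebbp, with NFIA in ExN, chr16:4274105-4274205: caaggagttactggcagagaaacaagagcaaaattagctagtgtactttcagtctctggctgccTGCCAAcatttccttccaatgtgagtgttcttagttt
No NFI element, intron of Actn4, with GR in GR-con, chr7:28919869-28919969: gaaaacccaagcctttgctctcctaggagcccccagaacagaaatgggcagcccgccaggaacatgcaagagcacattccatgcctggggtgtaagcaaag
No NFI element, nearest protein-coding start Agps, with GR in GR-KO, chr2:75768449-75768549: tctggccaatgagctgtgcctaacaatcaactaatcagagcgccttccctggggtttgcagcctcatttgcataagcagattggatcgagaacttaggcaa
Single element, intron of St3gal2, with GR in ExN, chr8:110938890-110938990: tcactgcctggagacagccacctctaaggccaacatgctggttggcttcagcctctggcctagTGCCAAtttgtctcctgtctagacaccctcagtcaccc

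Of the 16 patterns searched, the full palindrome differed most between the 2 distal classes by ratio. It lay in 75 of 7712 windows (0.973%; interval 0.777% to 1.22%), against 4 of 6291 windows of distal GR-NFIA sites (0.0636%; interval 0.0247% to 0.163%) and 0 of 15424 windows taken 1 kb to either side of the sites without GR, a count that allows up to 0.0195% by a limit of 3 counts. Over all 23495 NFIA sites the share was 0.366%. The intervals of the 2 distal classes did not overlap. With the summit of each library in turn, the share was 0.983% ± 0.0368 at sites without GR and 0.0659% ± 0.00107 at distal GR-NFIA sites (SD, n = 3 libraries whose sites largely coincide).

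Allowing 1 of the 10 fixed bases to differ brought in more sites and kept the order. This relaxed palindrome, chosen after the data were seen, lay in 679 of the 7712 windows (8.80%; interval 8.19% to 9.46%), in 140 windows of distal GR-NFIA sites (2.23%; interval 1.89% to 2.62%) and in 2.14% of windows of promoter NFIA sites without GR. Flanks of the sites without GR held it in 0.214%, and all NFIA sites in 3.97%. The single element TTGGCA, which can be part of a full palindrome, lay in 26.8% of windows, against 21.3% at distal GR-NFIA sites, 5.39% in flanks and 17.2% over all NFIA sites. A full palindrome or single element was thus found in 27.1% of the sites without GR (2091 sites), and 5621 sites (72.9%) held neither in this window. 2 or more single elements stood in 255 windows (3.31%), against 2.035% at distal GR-NFIA sites.

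Spacing and position were both sharp. Among pairs of inverted elements separated by 0 to 12 bases, the pair with 5 bases between stood in 75 windows of sites without GR, the pair with 6 bases in 10 and the pair with 10 bases in 7, and every other spacing in 1 to 6 windows. At distal GR-NFIA sites the count at 5 bases was 4, within the 0 to 6 windows seen across spacings. Centres of the 75 palindromes lay a median of 9 bp from the NFIA summit, and 63 of them (84%) lay within 20 bp.

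**Figure D1:**
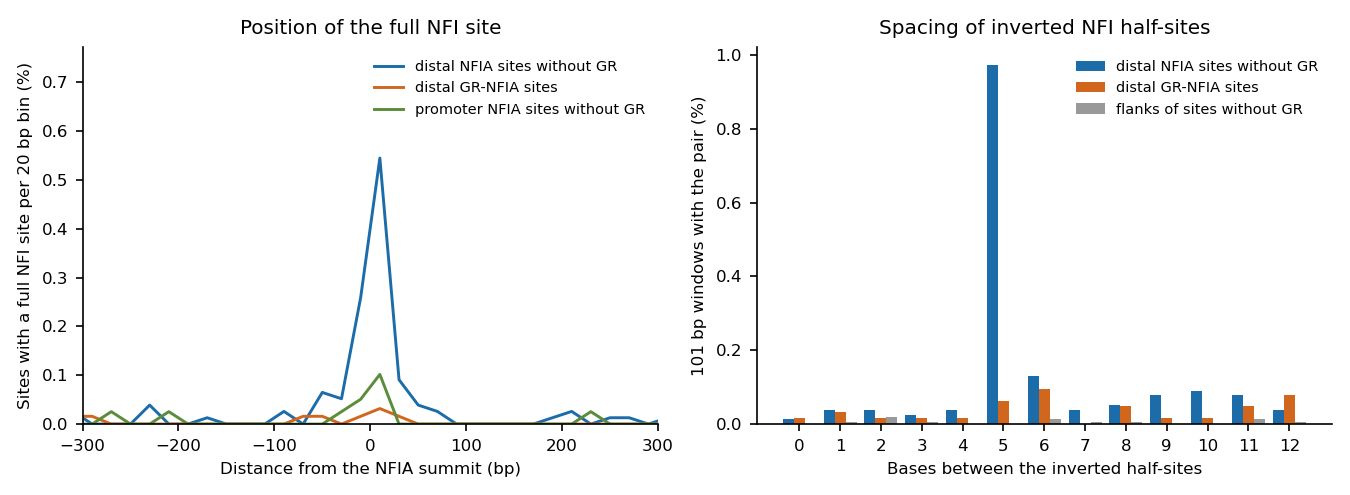
Left, share of sites (%) with a full NFI palindrome in each 20 bp bin of distance from the NFIA summit (bp) for 3 classes of NFIA site; right, share of summit windows (%) holding 2 inverted NFI elements at each spacing from 0 to 12 bases, for distal sites without GR, distal GR-NFIA sites and the flanks of the former. The profile of sites without GR peaks at the summit, and its bar at 5 bases (0.973%) stands above every other spacing, the next being 0.130% at 6 bases.

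Peak strength and the palindrome moved together, so the classes were also compared at like strength. All 14003 distal sites were ranked by their median rank of NFIA fold enrichment over the libraries and divided into 5 quintiles. In the strongest quintile, 29.3% of 769 sites without GR held the relaxed palindrome (interval 26.15% to 32.6%), against 5.02% of 2032 distal GR-NFIA sites (interval 4.15% to 6.06%). The gap stayed in every quintile, with 12.8% against 1.25%, 7.205% against 0.7505%, 5.55% against 0.702% and, in the weakest, 2.92% against 0.614%, and in none of the 5 did the intervals overlap.

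Other patterns were searched on both strands in the same windows. The CTCF core, the binding sequence of the insulator protein CTCF, lay in 198 windows (2.57%; interval 2.24% to 2.94%), against 0.970% at distal GR-NFIA sites, 0.0908% in flanks and 1.315% over all NFIA sites. By library the shares were 2.38% ± 0.287 and 0.906% ± 0.0892 (SD, n = 3). The full GRE, ACA and TGT with 3 bases between and a G and a C 1 base further out, went the other way. It lay in 32 windows (0.415%; interval 0.294% to 0.585%), against 0.970% at distal GR-NFIA sites (interval 0.7556% to 1.24%). That was still above the 0.169% of flanks, and all NFIA sites stood at 0.460%. Sites with a GR peak in 1 NR library held it in 0.636% and those with none in 0.237%, with overlapping intervals. The inner ACA and TGT alone stood at 3.06% of sites without GR, 3.58% of distal GR-NFIA sites and 2.30% of all NFIA sites, the first near the 3.08% of its flanks. The SOX pattern (ACAAAG or ACAATG, read by SOX family regulators of glial fate) was at 15.3% against 18.1% at distal GR-NFIA sites, 12.8% in flanks and 12.3% over all NFIA sites.

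The palindromic E-box CAGCTG, bound by basic helix-loop-helix proteins, was alike in both distal classes (10.9% and 10.97%) and above the 5.05% of flanks and the 8.65% of all NFIA sites. RFX (GTTGCCATG), bound by regulatory factor X proteins, was likewise alike at 0.934% and 0.970%, against 0.175% in flanks and 0.868% over all NFIA sites. The palindromic LHX pattern TAATTA, bound by LIM-homeobox proteins, stood at 2.801% and 3.275% in the distal classes and 2.59% in flanks, and at 2.00% over all NFIA sites. Intervals of the sites without GR and of their own flanks overlapped for LHX, AP-1, POU, the ROR and REV-ERB element, the second E-box form (CAGATG, 7.81%), FOX (TGTTTAC, 1.28%) and the inner GRE. Over all NFIA sites these last 3 were at 5.61%, 1.04% and 2.30%. TEAD (GGAATG), AP-1 (TGACTCA or TGAGTCA), POU (ATGCAAAT), the ROR and REV-ERB element (AGGTCA) and the palindromic CREB pattern (TGACGTCA) stood at 6.535%, 2.14%, 0.817%, 5.65% and 0.233% of sites without GR, at 7.44%, 1.64%, 0.890%, 5.675% and 0.350% of distal GR-NFIA sites, and at 5.65%, 1.56%, 0.804%, 4.55% and 1.12% over all NFIA sites.

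**Figure D2:**
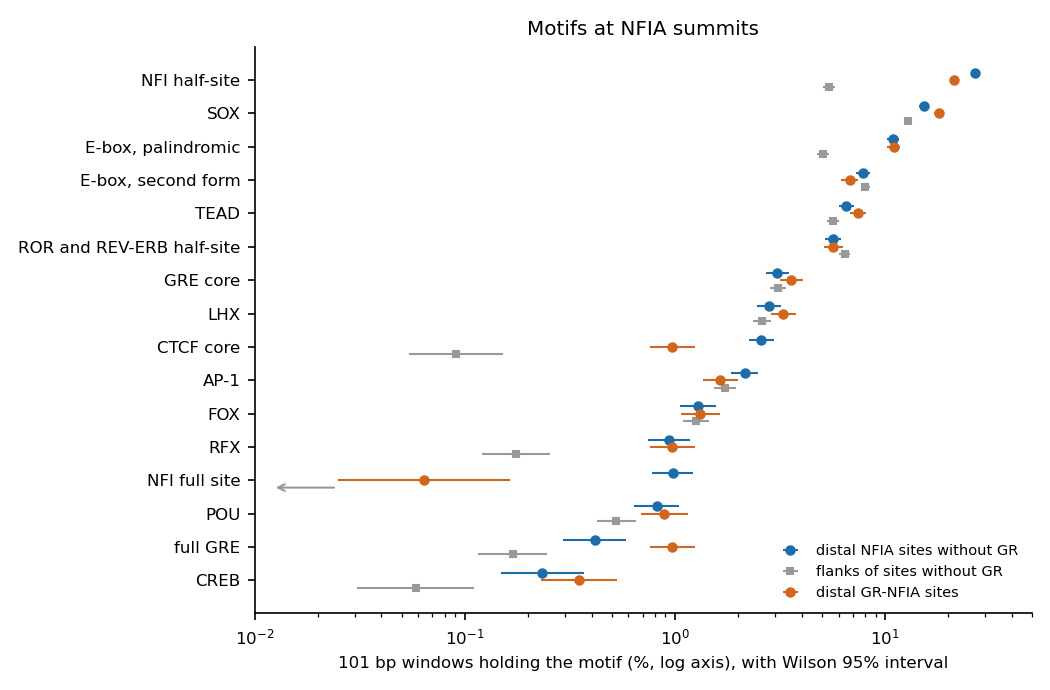
Share of summit windows holding each pattern (%, log axis) at distal NFIA sites without GR, at distal GR-NFIA sites and in flanks 1 kb from the former, with points for shares and bars for Wilson 95% intervals; the arrow marks the flanks' 0 count for the full NFI palindrome, below 0.0195%. Sites without GR lie right of distal GR-NFIA sites for the full NFI palindrome and the CTCF core, and left of them for the full GRE and SOX.

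Base composition differed little between the distal classes. The median GC content of the windows was 53.5% at sites without GR and 54.5% at distal GR-NFIA sites, against 65.35% at promoter NFIA sites without GR. Repeats covered a mean of 6.54% of the windows, against 22.5% of their flanks.

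The sites lay mostly in introns and between genes. Of the 7712, 4232 (54.9%) lay in introns, 2934 (38.0%) were intergenic and 546 (7.08%) were exonic, against 56.05%, 37.5% and 6.49% of distal GR-NFIA sites. Median distances to the nearest start were 9406 bp and 9340 bp. Of the sites without GR, 1240 lay within 2000 bp of a start, 2757 at 2000 to 10000 bp, 2953 at 10000 to 50000 bp, 726 at 50000 to 200000 bp and 36 farther away. A distal GR-NFIA site stood within 50000 bp of 48.96% of them, and another site without GR within 50000 bp of 58.4%. At the distal limit, the nearest sites inside lay 502 bp from a start (an intergenic site at chr2:6479093-6479283 and an intron of Lrp8 at chr4:107803681-107803825), and a site just outside lay at 499 bp (Ctnnal1).

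NFIA peaks without GR were narrower and weaker than those with GR, in values that partly chose them. Their median width was 159 bp, against 263 bp for distal GR-NFIA sites. Median fold enrichment in the 3 NFIA libraries was 7.20, 6.64 and 6.34 at sites without GR, and 9.95, 9.09 and 7.925 at distal GR-NFIA sites. All 3 libraries called 3962 of the sites without GR (51.4%) and just 2 called 3750 (48.6%), whereas 89.7% of distal GR-NFIA sites were called in all 3. The share of distal sites without GR rose from 27.5% of the strongest quintile through 45.6%, 61.9% and 69.5% to 70.9% of the weakest, so most strong distal NFIA sites had GR and most weak ones did not.

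**Figure D3:**
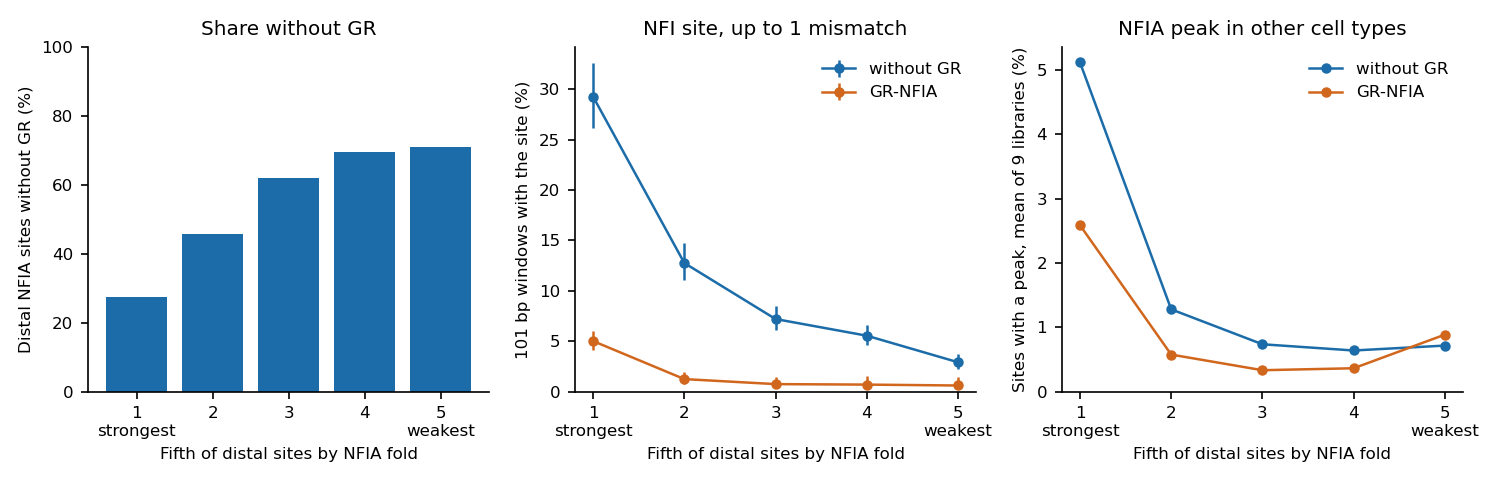
Distal NFIA sites in 5 quintiles of NFIA fold enrichment (1 strongest): left, share without GR (%); middle, share of summit windows with an NFI palindrome of at most 1 changed base (%), with Wilson 95% intervals; right, mean share with an NFIA peak over 9 libraries of other cell types (%). The share without GR rises from 27.5% to 70.9%, and in the strongest quintile sites without GR exceed GR-NFIA sites in palindromes (29.3% and 5.02%) and in NFIA elsewhere (5.12% and 2.59%).

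The calls that defined the absence of GR varied among the NR libraries, and a site without GR is one without a GR site called in 2 of them, not one at which GR was never seen. No NR GR library had a peak at 4229 of the sites (54.8%), and 1 did at 3461 (44.9%), of which 2878 were called by replicate 3 alone, 555 by replicate 1 alone and 28 by replicate 2 alone. At the remaining 22 sites, peaks of 2 or 3 libraries did not merge into 1 GR site. On the other side of the threshold, 2 libraries had called GR at 5073 of the distal GR-NFIA sites and all 3 at 1207. Among the sites without GR the palindrome differed with the number of NR calls: 70 of the 75 full palindromes stood at sites with no NR GR peak, and the relaxed form stood at 12.96% of sites with no NR GR peak (interval 11.98% to 14%) and at 3.785% of sites with 1 (interval 3.199% to 4.47%), nearer to the 2.225% of distal GR-NFIA sites.

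The 12 strongest sites called in all 3 NFIA libraries, with no GR peak in any NR or GR-con library, were drawn from 1685 such sites. The first, at chr8:104388012-104388229 in an intron of Cmtm4, had folds of 38.6, 41.8 and 38.1 and an NFIA peak in 1 oligodendrocyte library. A site at chr9:47358081-47358349, nearest to the start of the adhesion molecule gene Cadm1 at 171958 bp, held a full palindrome and had folds of 34.0, 35.8 and 30.8. These were followed by an intronic site of Dpysl3, which encodes a cytoskeletal regulator of neurite growth, on chromosome 18.

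A site 1807 bp from the start of Scml4, at chr10:42863513-42863901, held a full palindrome, had folds of 36.9, 28.8 and 28.8, and was called for NFIA in 2 oligodendrocyte libraries and for GR in 1 GR-KO library. The others lay in introns of Anxa6 (a calcium-dependent membrane-binding protein), Snd1, Tcf3 (an E-box binding factor) and Synpo (an actin-associated protein), and between genes near Tmem72, Gdpd2, Mrps23 and Gtf2a1. The last, at chr12:91609492-91609721, had folds of 29.8, 38.3 and 23.55 and was called for NFIA in all 3 oligodendrocyte libraries. Of the 12, 2 held a full palindrome and 6 of 12 had NFIA in at least 1 oligodendrocyte library, with none in InN and 1 in ExN. Over all 7712 sites, 165 had NFIA in an oligodendrocyte library, and in the strongest quintile the mean share per oligodendrocyte library was 6.59%.

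GR was next measured at these sites in astrocyte libraries that the choice did not use. In GR-con, 817 of 7712 sites (10.6%) had a GR peak in replicate 1 and 389 (5.04%) in replicate 2. In GR-KO the counts were 177 (2.30%) and 7 (0.0908%). In DR they were 2, 0 and 17 sites. Over all NFIA sites the GR-con libraries called 26.4% and 26.55%, the GR-KO libraries 6.73% and 1.04%, and the DR libraries 0.187%, 0.0936% and 0.868%, each above its value at the sites without GR. Both GR-con libraries stood above both GR-KO libraries, with means of 7.82% and 1.19%, a difference of 6.63 percentage points (exact permutation test, two-sided, p = 0.333, the smallest that 2 against 2 libraries allow; adjusted p = 0.8 over 8 comparisons). The total number of GR peaks moved with this difference, and its part in the result was not tested. As a share of each library's own peaks, 10.5% and 5.74% lay at these sites in the GR-con libraries, and 9.59% and 1.695% in those of GR-KO.

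The same libraries separated the 2 distal classes, but GR calls in NR astrocytes had split these classes in the first place. A lower GR share at sites chosen for lacking GR calls was thus partly built into the choice and is no independent support. The test below pools DR, GR-con and GR-KO libraries, whose gaps differed widely, and speaks for none of these groups alone. At distal GR-NFIA sites, a GR peak was called at 55.6% and 49.1% in GR-con, at 18.5% and 1.53% in GR-KO and at 0.223% to 2.24% in DR, each above its value at sites without GR. Over the 7 libraries the mean was 2.61% at sites without GR and 18.2% at distal GR-NFIA sites, a difference of -15.6 percentage points, lower in 7 of 7 libraries (exact sign-flip permutation test, two-sided, p = 0.0156, the smallest possible; adjusted p = 0.025 over 8 comparisons of classes). With any 1 of the 7 libraries left out the adjusted p was 0.05, which 6 libraries cannot undercut here, and the difference ranged from -18.2 to -10.7. Without NR GR replicate 1 or 3, which changes the sites themselves, it was -27.2 and -28.0. Against promoter NFIA sites without GR the difference was 0.584 points (higher in 4 of 7, lower in 2; exact sign-flip p = 0.5625, adjusted p = 0.643) and did not pass, and its sign turned without GR-con replicate 1 (-0.458).

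**Figure D4:**
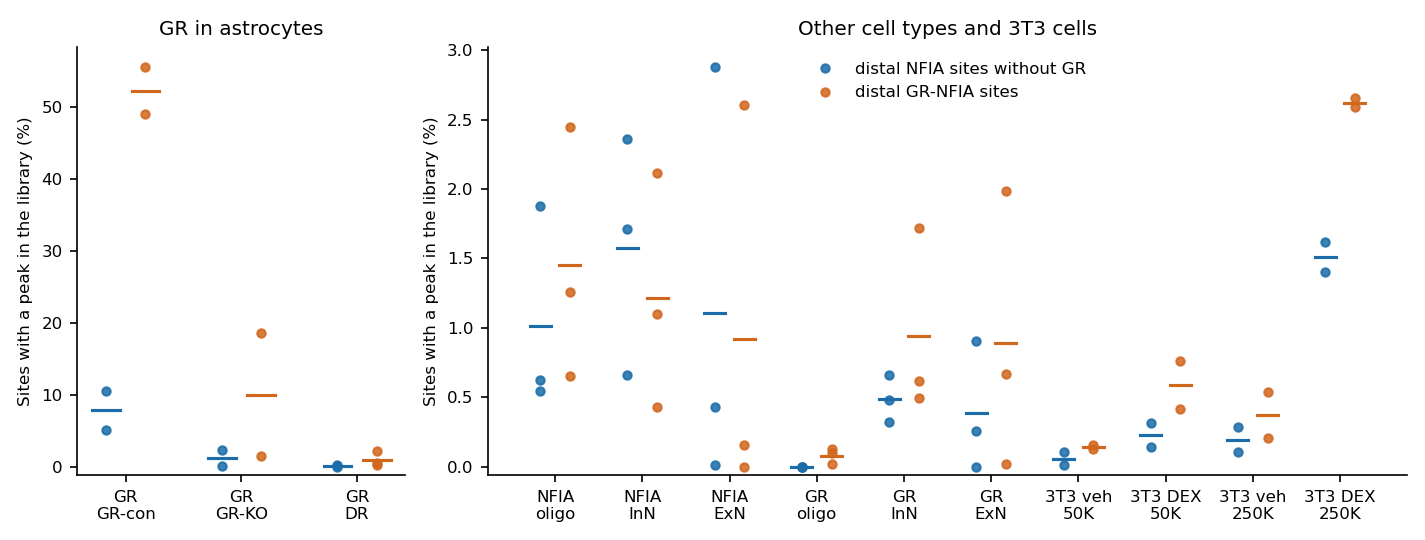
Share of sites (%) with a peak in each library that the choice of sites did not use, for distal NFIA sites without GR and distal GR-NFIA sites; points are libraries and lines are group means, GR in astrocytes on the left and GR or NFIA in other cell types and 3T3 cells on the right (a separate scale). In GR-con the sites without GR sit at 10.6% and 5.04% and the GR-NFIA sites at 55.6% and 49.1%, whereas NFIA points of the 2 classes overlap in every other cell type.

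GR in the GR-con libraries followed the number of NR calls. Sites with no NR GR peak had one in 5.58% and 2.06% of cases, and sites with 1 NR call in 16.5% and 8.58%. Distal GR-NFIA sites with 2 NR calls stood at 46.8% and 40.4%, and those with 3 at 93.2% and 85.9%. A GR peak in both GR-con libraries was found at 156 sites without GR (2.02%), against 16.2% of all NFIA sites and 37.9% of distal GR-NFIA sites. In 14 of these 156 windows the LHX pattern was present (8.97%, interval 5.42% to 14.5%), above the 2.801% of all 7712. Over all 6291 distal GR-NFIA sites LHX stood at 3.275%, and those of them with GR in both GR-con libraries were not counted for it. Among other patterns counted at the 156, SOX stood at 19.2%, the single NFI element at 23.7% and the full GRE at 0.641%, against 15.3%, 26.8% and 0.415% of all 7712.

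Leading those 156 by NFIA fold was a site at chr16:77500974-77501498, in an intron of a non-coding transcript, with folds of 58.1, 33.2 and 43.6, a full palindrome and 1 NR GR call. Next were chr4:96797583-96797961 near Gm12695, chr7:28919821-28920107 in an intron of the actin crosslinker gene Actn4, and chrX:10574614-10574833 in an intron of the tetraspanin gene Tspan7. Each had GR in 1 NR library, just under the limit of 2. Both GR-KO libraries called GR at 1 site (0.0130%), against 0.464% of all NFIA sites; it lay at chr2:75768367-75768550 near Agps, had folds of 7.20, 6.435 and 7.13, and also had GR in 1 GR-con library. At least 1 DR library called GR at 17 sites (0.2204%), against 0.881% of all NFIA sites.

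Few of the sites had a called NFIA peak in another cell type. Oligodendrocyte libraries called NFIA at 48, 145 and 42 sites (0.622%, 1.88% and 0.545%), InN libraries at 182, 51 and 132 (2.36%, 0.661% and 1.71%), and ExN libraries at 222, 33 and 1 (2.88%, 0.428% and 0.0130%). The groups overlapped throughout. Means were 1.02% ± 0.750, 1.58% ± 0.857 and 1.11% ± 1.55 (SD, n = 3), and none of the 3 differences passed: oligodendrocytes less InN, -0.562 points (exact permutation p = 0.5); oligodendrocytes less ExN, -0.0908 (exact permutation p = 1); InN less ExN, 0.471 (exact permutation p = 0.7), with adjusted p of 0.8, 1 and 0.914, where 3 against 3 libraries cannot give less than 0.1.

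Read as a share of each library's own peaks, the order differed. Sites without GR held 23.9%, 20.1% and 37.8% of NFIA peaks in oligodendrocytes, 9.54%, 28.65% and 10.25% in InN, and 5.32% and 13.4% in ExN replicates 1 and 2. The single peak of ExN replicate 3 also lay at one of them, the site near Asb17. In the astrocyte libraries that chose them the share was 25.4% to 26.3%. Oligodendrocyte replicate 3 stood above every InN library and the other 2 within the InN range, and differences on this scale did not pass either.

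At the level of single sites, 7169 (93.0%) had no NFIA peak in any of the 9 other libraries, 454 had one in 1 other cell type, 67 in 2 and 22 in all 3. At least 1 of the 9 libraries called NFIA at 543 sites (7.04%), against 14.4% of all NFIA sites and 6.71% of distal GR-NFIA sites. NFIA in at least 2 libraries was called at 50 sites in oligodendrocytes (0.648%, against 0.753% of all NFIA sites), 82 in InN (1.06%, against 1.21%) and 30 in ExN (0.389%, against 0.651%).

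Over the 9 libraries, sites without GR and distal GR-NFIA sites differed by 0.0376 points in NFIA (means 1.23% and 1.196%, higher in 6 of 9, exact sign-flip permutation p = 0.801, adjusted p = 0.801), which did not pass. This mean joined opposite directions. Sites without GR were lower in every oligodendrocyte library (means 1.02% against 1.45%). They were higher in every InN library (1.58% against 1.21%) and every ExN library (1.11% against 0.922%). The split by cell type was not tested. By the same exact test the pooled difference was 0.546 (adjusted p = 0.03125) with NFIA sites called in all 3 libraries, and with no GR peak in any NR library 0.279 (adjusted p = 0.0469), both past the threshold and higher at sites without GR. Promoter NFIA sites without GR had a mean of 2.94%, a difference of -1.70 points that was negative in 5 of 9 libraries (exact sign-flip permutation p = 0.0703, adjusted p = 0.0938) and did not pass.

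The sites shared with oligodendrocytes held more NFI palindromes than the rest, in counts not matched for NFIA strength. Sites without GR in the strongest and weakest quintiles had a mean of 6.59% and 0.252% per oligodendrocyte NFIA library. They held the relaxed palindrome in 29.3% and 2.92%, and the part of strength in this contrast was not tested. Of 165 sites with NFIA in at least 1 oligodendrocyte library, 82 held the relaxed palindrome (49.7%; interval 42.2% to 57.25%) and 14 the full one (8.485%; interval 5.12% to 13.7%). In sites shared with InN the relaxed form stood at 17.4% (interval 13.3% to 22.5%), in those shared with ExN at 21.3% (interval 16.5% to 27.1%), and in sites with NFIA in no other cell type at 7.60% (interval 7.01% to 8.24%). Read from the palindrome, 23 of 75 sites with the full form (30.7%, interval 21.4% to 41.8%) had NFIA in another cell type, against 7.09% of sites with a single element and 6.71% of sites with neither. The link was not particular to sites without GR. With the relaxed palindrome, 19.7% of them (interval 16.9% to 22.9%) had NFIA in another cell type, against 31.4% of distal GR-NFIA sites (interval 24.3% to 39.5%). Distal GR-NFIA sites with neither stood at 6.63%.

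Sites holding a CTCF core had another pattern. NFIA was called at 5.05%, 1.01% and 7.58% of these 198 sites in the InN libraries and at 0%, 0.505% and 0% in the oligodendrocyte libraries. The 61 distal GR-NFIA sites with the core were similar, at 9.84%, 0% and 4.92% in InN and 0% in each oligodendrocyte library. Of the 264 sites shared with InN, 22 held the core (8.33%; interval 5.57% to 12.3%), and of the 165 shared with oligodendrocytes 1 did (0.606%). No more than 38.4% of the CTCF-core sites were called in all 3 astrocyte NFIA libraries, and their GR shares in GR-con were 4.55% and 1.01%.

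Across all 3 other cell types the leading site lay at chr3:153806398-153806648, 37686 bp from the start of Asb17, with folds of 39.7, 43.45 and 32.3 in astrocytes and an NFIA peak in 9 of 9 other libraries; its window held no NFI element. Sites called in 8 of 9 lay at chr12:86894267-86894878, 9774 bp from Irf2bpl and holding a full palindrome, and at chr3:90323256-90323393 within Gatad2b, a subunit gene of the NuRD chromatin remodeller that was named after its values were seen. The Irf2bpl site also had GR in 2 InN libraries, 1 ExN library and both 3T3 libraries with DEX at 250000 cells. A site at chr16:4273982-4274288, 60138 bp from the coactivator gene Crebbp, had folds of 49.7, 45.3 and 40.7, NFIA in 2 ExN libraries and GR in those same 3T3 libraries. Sites in intron or intergenic positions near Prr5, Sipa1l2 and Acacb completed the leading sets for InN, ExN and oligodendrocytes.

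GR peaks of other cell types were rarer still at these sites. No oligodendrocyte library called GR at any of them (0 of 7712 in each of 3, which allows up to 0.0389% by the same limit of 3 counts, from lists of 4 to 110 peaks). InN libraries called it at 51, 25 and 37 sites and ExN libraries at 70, 0 and 20. Differences between cell types did not pass: oligodendrocytes less InN, -0.488 points (exact permutation p = 0.1, the smallest possible, adjusted p = 0.4); oligodendrocytes less ExN, -0.389 (exact permutation p = 0.4, adjusted p = 0.8); InN less ExN, 0.0994 (exact permutation p = 0.8, adjusted p = 0.914). At least 1 of these 9 libraries called GR at 150 sites (1.95%), against 10.9% of all NFIA sites, and at least 2 did at 16 sites in InN (0.2075%, against 1.3%) and 16 in ExN (0.2075%, against 2.27%).

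In these libraries GR was lower at sites without GR than at both comparison classes. GR calls in NR astrocytes had split the distal classes, so the gap to distal GR-NFIA sites is no independent support. The tests pool the cell types and speak for none alone. The mean over 9 libraries was 0.2925%, against 0.638% at distal GR-NFIA sites, a difference of -0.345 points, lower in 9 of 9 (exact sign-flip permutation p = 0.00391, the smallest possible; adjusted p = 0.0208). It shrank to -0.143 with a distal limit of 2000 bp, to -0.223 without NR GR replicate 1, and to -0.135 (exact sign-flip test, adjusted p = 0.0625, no longer passing) with compared peaks of −log10 q of at least 5. Against promoter NFIA sites without GR (1.98%) it was -1.685 points, lower in 8 of 9 and level in 1 (exact sign-flip permutation p = 0.00781, adjusted p = 0.0208), -0.938 without ExN replicate 1, and -3.04 and -3.18 without NR GR replicates 1 and 3. It no longer passed with sites that had no GR peak in any NR library (-0.331, exact sign-flip test, adjusted p = 0.143) or in the stronger part of the sites by NFIA fold (-0.655, exact sign-flip test, adjusted p = 0.05).

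Within neurons, GR calls were more frequent at those of the sites that had NFIA in the same cell type. The same count was not made at other NFIA sites, so this is not shown to be particular to sites without GR. Of 264 sites with NFIA in InN, 45 also had a GR peak in InN (17.05%), against 0.604% of the 7448 others. Of 225 with NFIA in ExN, 46 had GR in ExN (20.4%), against 0.374% of the 7487 others. Of the 165 with NFIA in oligodendrocytes, 0 had GR there, which allows up to 1.82% by that limit. After the Irf2bpl site, those leading the neuronal GR set lay in introns of St3gal2, a sialyltransferase gene (chr8:110938858-110939270; folds 25.2, 20.7 and 24.1), and Chd3, a chromatin remodeller gene (chr11:69366205-69366640; folds 20.6, 18.4 and 16.7), each with GR in 2 ExN libraries.

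In 3T3 cells, GR was called at few of the sites. With 250000 cells, DEX libraries called GR at 125 and 108 sites (1.62% and 1.4%) and vehicle libraries at 8 and 22 (0.104% and 0.285%). With 50000 cells the counts were 11 and 24 with DEX and 1 and 8 with vehicle. Within each number of cells, every DEX library stood above every vehicle library, with a mean difference of 0.742 points (means 0.869% and 0.126%; exact permutation within cell number, two-sided, p = 0.0556, the smallest possible, adjusted p = 0.4), so it did not pass. The lists also differed in length, with 5010 and 4654 peaks for DEX against 382 and 1035 for vehicle at 250000 cells, and 720 and 1391 against 189 and 320 at 50000. As a share of each library's own peaks the mean difference was 0.259 points (exact permutation p = 0.667, adjusted p = 0.889), with 2.595% and 2.36% against 2.09% and 2.13% at 250000 cells. Both DEX libraries with 250000 cells called GR at 75 sites (0.973%), against 1.27% of all NFIA sites.

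The 3T3 libraries had less GR here than at distal GR-NFIA sites, but GR calls in NR astrocytes had split these classes, so the gap is no independent support. The test pools treatments and cell numbers and speaks for none alone. The gap ran from 0.0584% against 0.143% (vehicle, 50000 cells) to 1.51% against 2.62% (DEX, 250000 cells). Means over the 8 libraries were 0.498% and 0.932%, a difference of -0.434 points, lower in 8 of 8 (exact sign-flip permutation p = 0.00781, the smallest possible; adjusted p = 0.0208). Without NR GR replicates 1 and 3, the difference was -1.26 and -1.14. Compared with promoter NFIA sites without GR it was 0.231 points higher, in 7 of 8 libraries (exact sign-flip permutation p = 0.0156, adjusted p = 0.025). That call did not hold when any of 7 of the 8 3T3 libraries (all but replicate 1 of vehicle at 50000 cells) was left out, with differences of 0.163 to 0.256 and an adjusted p of 0.05. It was also lost without NFIA replicate 1 (0.210, exact test, adjusted p = 0.0625) or NR GR replicate 1, 2 or 3 (0.155, 0.117 and 0.107; adjusted p = 0.1, 0.198 and 0.219). At the 32 sites with a full GRE, GR was called in 31.25% and 6.25% of sites in GR-con and 9.375% in each of these DEX libraries with 250000 cells. These shares rest on few sites, and the 6.25% is near the 5.04% of all sites without GR in that GR-con library. At the 61 distal GR-NFIA sites with a full GRE the shares were higher, at 78.7% and 60.7% in GR-con and 16.4% and 14.75% with DEX.

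Genes around the sites were read from 14 lists of known roles. Of 21924 protein-coding genes, 6985 (31.9%) had a site without GR within 50 kb of a start, and 24.6% had a distal GR-NFIA site. For 1572 genes (7.17%) there was a site without GR but no GR-NFIA site of any kind in that range. Proximity does not assign a site to a gene.

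The NFI family itself had sites without GR at 4 of 4 genes (background 31.9%) and distal GR-NFIA sites at 4 of 4 as well (background 24.6%). Nfia had 10 sites without GR and 9 distal GR-NFIA sites within 50 kb, the former led by an intronic site at chr4:97908838-97909062 with folds of 21.5, 19.9 and 9.94. In the same order the counts were 1 and 8 for Nfib, 9 and 4 for Nfic, and 3 and 14 for Nfix. Nfib and Nfic were led by intronic sites with folds of 8.58, 10.9 and 10.3, and of 7.34, 9.525 and 10.05, respectively. Nfix was led by a site called in 2 libraries, with folds of 7.14 and 6.98.

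Of 24 transcription factors of glial fate, 18 (75%) had a site without GR and 21 a distal GR-NFIA site. The leading sites were near Id2, an inhibitor of basic helix-loop-helix proteins (chr12:25110338-25110547; folds 10.99, 18.6 and 13.8), the homeodomain-only gene Hopx, the zinc finger gene Klf15 and the homeobox gene Emx2. Of 40 astrocyte identity genes, 28 (70%) had a site without GR and 35 a distal GR-NFIA site, with leading sites near the water channel gene Aqp4, the cysteine pathway gene Cbs (chr17:31664857-31665015; folds 18.2, 7.376 and 12.04) and the matrix proteoglycan gene Bcan. No gene of either list had a site without GR and lacked a GR-NFIA site of any kind.

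Of 18 synapse organisers, 9 (50%) had a site without GR and 11 a distal GR-NFIA site. The sites without GR were led by those near the phagocytic receptor gene Mertk and the matrix gene Sparc. Thbs1, a thrombospondin gene, Gpc6, a glypican gene, and Nlgn1, a neuroligin gene, had a site without GR and no GR-NFIA site within 50 kb. For Notch, BMP and TGF-beta signalling, 8 of 20 (40%) had a site without GR, led by Smad3, and 10 had a distal GR-NFIA site. Notch3 and Jag1, a receptor and a ligand of one pathway, had a site without GR and lacked a GR-NFIA site. For FGF, Hedgehog and Wnt signalling, 13 of 20 (65%) had a site without GR and 14 a distal GR-NFIA site. The former were led by Gli2, a transcriptional effector of Hedgehog signalling (chr1:118980746-118980899; folds 17.9, 14.9 and 15.1).

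The canonical glucocorticoid targets had sites without GR at 21 of 30 genes (70%) and distal GR-NFIA sites at 20, so both kinds stood near the same list. Fkbp5, a co-chaperone of GR, had one 642 bp from a start at chr17:28518058-28518281 (folds 17.1, 27.7 and 12.6), and Dusp1, Ddit4 and Tsc22d3 followed. The circadian clock had them at 17 of 19 genes (89.5%), against 13 of 19 for distal GR-NFIA sites, led by Npas2, Rora and Arntl. Nfil3, a repressor of the clock, had no GR-NFIA site within 50 kb.

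Markers of other cell types ranged widely. Sites without GR stood near 4 of 15 ExN markers (26.7%), 3 of 17 InN markers (17.65%), 8 of 18 oligodendrocyte lineage markers (44.4%), 4 of 13 microglia markers (30.8%) and 9 of 16 endothelial and mural markers (56.25%). The last list had a distal GR-NFIA site at 4 of 16 genes, and 4 of its genes (Cldn5, Flt1, Cdh5 and Acta2) had a site without GR and no GR-NFIA site within 50 kb. Housekeeping genes had sites without GR at 11 of 20 (55%) and distal GR-NFIA sites at 6. Within 10 kb, where 11.9% of all protein-coding genes had a site without GR, housekeeping genes had one at 2 of 20 (10%), below that background, and InN markers at 2 of 17 (11.8%), near it. In the same range it was 13 of 24 for glial fate factors, 18 of 40 for astrocyte identity, 12 of 30 for glucocorticoid targets, 8 of 19 for clock genes and 5 of 16 for endothelial and mural markers.

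**Figure D5:**
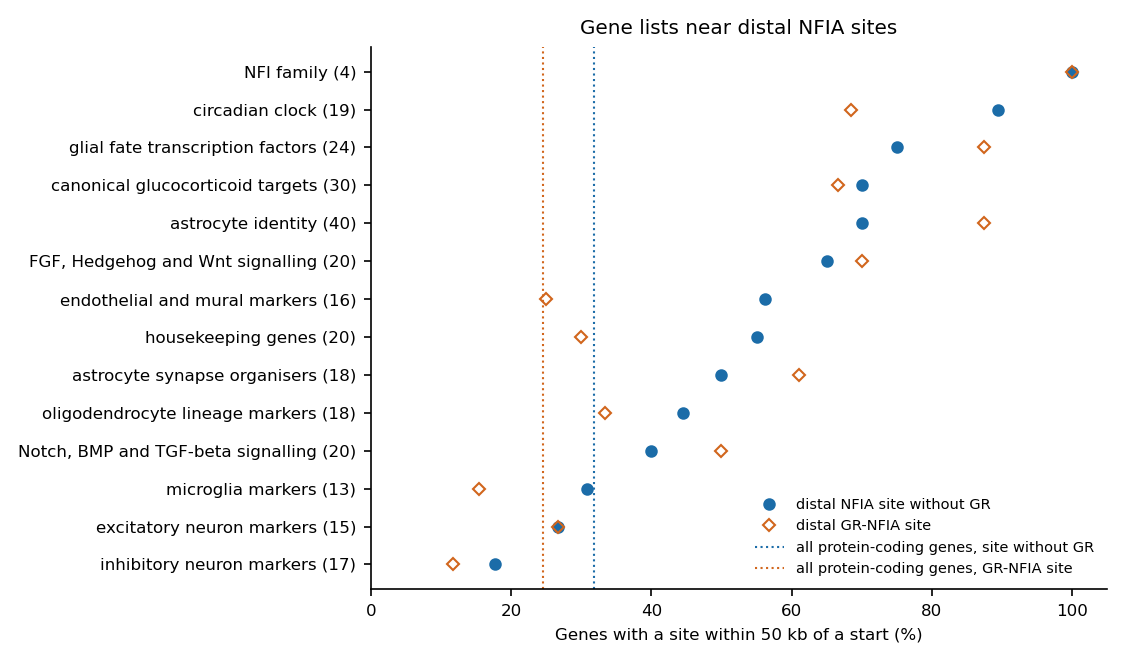
Share of each list's genes (%; number of genes in brackets) with a distal NFIA site without GR (filled) or a distal GR-NFIA site (open) within 50 kb of a start, with dotted lines at the shares of all protein-coding genes, 31.9% and 24.6%. Clock genes reach 89.5% and 68.4%, while astrocyte identity genes reach 70% for sites without GR and 87.5% for GR-NFIA sites.

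The protein-coding gene models with most sites in or within 10 kb of the body were Gm20388 with 46, Fgfr2 with 30, Nav2 with 18 and Gse1 with 13. The models differ in length: that of Gm20388 spans 4434882 bp and contains Gse1, and the Fgfr2 model of this annotation spans 2960900 bp. Nav2, a navigator gene of neurite growth, held 18 sites without GR and 6 distal GR-NFIA sites over 701375 bp, and Gse1 held 13 and 12 over 352935 bp.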

How the data were processed

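Peak lists of 39 of 50 samples were used, 27 for GR and 12 for NFIA, in 15 groups taken from the sample labels. GR in GFP-negative nuclei and the IgG controls, 11 samples in all, were not analysed here. According to the methods and the submitters' processing notes, reads were trimmed (cutadapt) and mapped to mm10 (Bowtie2) by the authors, who dropped duplicates (Picard), filtered reads and fragments (SAMtools, deepTools) and called peaks library by library (MACS2) against IgG. The IgG library behind each call was not given in the sources used here. Each deposited peak carries a fold enrichment (a ratio over background), a −log10 p and a −log10 q, a score and a summit, as the authors' caller gave them. No in vivo peak had a −log10 q below 2.001 in the deposited lists. Read depth is not in the deposited lists.

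Sites were merged peaks (overlap of at least 1 bp) called in at least 2 libraries. Starts, exons and introns came from GENCODE M21 on mm10, and coordinates are 1-based. A site counted as called in a library where a peak overlapped it by 1 bp. Motifs were searched on both strands within 50 bp of the summit of a site's peak of highest −log10 q and 1 kb to either side. Shares were compared between groups by two-sided exact permutation of libraries (within cell number for 3T3) and between classes by two-sided exact sign flips over libraries, each family of 8 with Benjamini-Hochberg adjustment and a threshold of 0.05. Gene lists are described by counts. Named sites were, by NFIA rank, the 12 strongest without GR in NR or GR-con, the 4 strongest with NFIA in 2 libraries of each other cell type, the 4, 3, 3 and 3 strongest with GR in GR-con, GR-KO, 3T3 cells with DEX and neurons, up to 4 genes per list, the NFI genes, the 4 genes with most sites and the 2 sites nearest each side of the distal limit. Some items under this rule are not reported here. The sites, lists and tests were chosen with earlier results of these data known. Calculations used Python 3.11.15, NumPy 2.4.6 and matplotlib 3.10.9, and site merging and both tests were tested on simulated data.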

Additional observations from a re-analysis of the deposited data

How the results depend on the processing

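Outside the settings reported, 330 values of the 16 exact permutation tests were computed, and every p below is from them; 284 kept direction and side of the threshold, 24 lost a call, 2 gained one and 20 changed sign, all 20 in comparisons whose reported value had not passed. With NFIA sites called in all 3 libraries, NFIA in oligodendrocytes less ExN was 0.370, GR in InN less ExN -0.0673, and NFIA in other cell types against distal GR-NFIA sites 0.546 (exact test, adjusted p = 0.03125). With no GR peak in any NR library these were 0.0709 for the first and 0.279 for the last (exact test, adjusted p = 0.0469), and GR differences from promoter sites without GR fell short in other cell types (-0.331, adjusted p = 0.143) and 3T3 cells (0.141, adjusted p = 0.0625). With −log10 q of at least 5 the first was 0.0130, GR in other cell types against distal GR-NFIA sites -0.135 (exact test, adjusted p = 0.0625) and GR in 3T3 cells against promoter sites 0.1145 (exact test, adjusted p = 0.0625). In the upper part of NFIA fold, the promoter comparisons were -0.655 (exact test, adjusted p = 0.05) and 0.2635 (exact test, adjusted p = 0.0938). As shares of a library's own peaks, NFIA in oligodendrocytes less InN was 11.1 and InN less ExN -23.4 points. ExN replicate 3 entered the latter with its single peak, counted as 100%. ExN replicates 1 and 2 stood at 5.32% and 13.4%, both below the InN mean of 16.15%. The sites numbered 3962 with all 3 NFIA libraries and 4229 with no NR GR peak. The single NFI element stood at 36.4% within 100 bp of the summit and 28.5% in sites of all 3 libraries, and the full palindrome at 1.29% in the latter and 8.80% with at most 1 base changed. Genes with a site numbered 2607 within 10 kb and 4242 by nearest start. The cause of these shifts was not tested. A fixed window of 100 bp to either side and the changed base were added after seeing the data; the fixed window lost no call.

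Leaving out 1 library gave 4571 to 12792 sites. Ranges in percentage points were 3.85 to 19.0 for GR-con less GR-KO, -0.6375 to 0.795 for NFIA in oligodendrocytes less ExN, -0.0756 to 1.36 for NFIA in InN less ExN, and -0.0951 to 0.359 for GR in InN less ExN. Against distal GR-NFIA sites they were -28.0 to -10.7 for GR in DR, GR-con and GR-KO, where 6 libraries allow no p under 0.03125, and -0.158 to 0.399 for NFIA in other cell types. Against promoter sites without GR they were -0.458 to 1.52 for GR in DR, GR-con and GR-KO and 0.107 to 0.269 for GR in 3T3 cells. Same-numbered libraries correlated at -0.140 to 0.257, and in 0 of 6 contrasts of 3 pairs did every pair exceed 0.1, so they share only a number; with the replicate block the GR-con less GR-KO difference stayed 6.63 points (exact p = 0.5) and no comparison passed. Short lists (1 peak in ExN NFIA replicate 3, 4 in an oligodendrocyte GR library) limit what a missing call shows.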
